A study of Mus musculus with 2 samples.

Results

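The genes described here are the 10 that make and load microRNAs: Drosha, Dgcr8, Xpo5, Dicer1, Tarbp2, Prkra and the Argonautes Ago1 to Ago4. Their probes were found by the gene name in the array files, older names included (Rnasen for Drosha, Eif2c1 to Eif2c4 for Ago1 to Ago4), or by a RefSeq accession of the gene. This gave 31 of 41174 gene probes, for 10 of 27671 gene names on the array. The rule itself uses no measured value. Messenger RNA of cultured oligodendrocytes, the myelin-making glia, was compared with that of cultured astrocytes, both from C57BL/6J mice and neither treated, on 2 Agilent arrays that each held both cell types. Replicate 1 had astrocyte RNA in the dye Cy3 and oligodendrocyte RNA in Cy5, and replicate 4 had the dyes exchanged. Oligodendrocytes were shaken off mixed glial cultures after 10 to 14 days; microglia were shaken off the rest 7 to 10 days later, after culture in medium with 10% serum, and the astrocytes that stayed attached were then trypsinised, so the cell types also differed in time in culture. The series belongs to work on a microRNA family in oligodendroglial cells and looks for mRNAs enriched in oligodendrocytes. Whether replicates 1 and 4 are separate cultures is not given in the sources used here. The p-values rest on how far these 2 arrays differ, over all genes more than in the single gene, and that difference may be technical.

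A microRNA starts as a hairpin in a longer transcript. The nuclease Drosha and its RNA-binding partner Dgcr8 cut the hairpin out in the nucleus, exportin 5 (Xpo5) carries it to the cytoplasm with the GTPase Ran, and Dicer1 trims it to a short duplex, helped by the double-stranded RNA-binding proteins Tarbp2 and Prkra. One strand is loaded into an Argonaute protein, which it guides to target mRNAs; of the mouse Argonautes, Ago2 is the one known for cutting its targets. Loss of Dicer1 in the oligodendrocyte lineage is known to impair differentiation and myelin formation.

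Each probe reads a stretch of 60 bases, and those of both Dicer1 probes and of a Drosha probe are shown. For Dicer1 the probes lie far apart in the gene and both were called, on the minus strand at chr12:102216485-102216544 for the brighter and chr12:102186776-102188847 for the dimmer (array design coordinates in build mm7; the second range is longer than the probe). The Drosha probe is the middle one of the gene by position, on the plus strand at chr15:12975383-12984053, a range again longer than the probe.
Dicer1 A_51_P483059: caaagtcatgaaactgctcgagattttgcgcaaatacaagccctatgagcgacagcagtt
Dicer1 A_51_P333060: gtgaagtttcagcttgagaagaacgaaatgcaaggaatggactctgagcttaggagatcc
Drosha A_52_P578347: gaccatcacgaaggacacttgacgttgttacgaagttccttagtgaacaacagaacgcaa
Exons and UTRs were not assigned, and what else a probe may bind was not examined.

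Of the 31 probes, 29 were well above background in every channel of both arrays and were tested; 1 probe each of Dgcr8 and Prkra was not well above background in any channel. All 10 genes therefore had a tested probe, and a gene is represented by its brightest one. That probe was the most 3′ of the gene's probes in 8 of the 9 genes with several; Dicer1 was the exception. Values below are normalised log2 signals, which compare the same probe between channels, and log2 ratios of oligodendrocyte over astrocyte, which are positive where oligodendrocytes were higher. Loess normalisation centres the ratios (median over all genes -0.0040), so directions are relative to the typical gene. With ratios set to the 10 spike-in probes, all log2 ratios move by 0.71 toward astrocytes.

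Called genes of the pathway lay on both sides. At a Benjamini-Hochberg adjusted p under 0.05 in limma, 5 of the 10 genes were called, beside 41.2% of all 21897 genes. Dicer1, Tarbp2 and Ago3 were higher in oligodendrocytes (18.5% of all genes), with Tarbp2 and Ago3 reversed under spike-in scaling, and Drosha and Prkra were higher in astrocytes (22.6% of all genes). None of the 10 reached a 2-fold difference on both arrays, against 12.4% of all genes. The median absolute log2 ratio was 0.36 over the 10 genes and 0.26 over all genes, and the median SD between the arrays was 0.11 and 0.12. The median log2 ratio of the 10 was 0.14, with 6 above 0 and 4 below; 9 of 10 had the same sign on both arrays, as had 76.3% of all genes. When arrays were centred on their median instead of loess, limma called none of the 10 (2 at an unadjusted p under 0.05), beside 2928 of all genes. With limma's treat against a log2 ratio of 0.5 only Dicer1 was called, beside 3816 of all genes. With spike-in scaling 8 were called, all higher in astrocytes, beside 19584 of all genes, of which 18284 were higher in astrocytes.

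**Figure D1:**
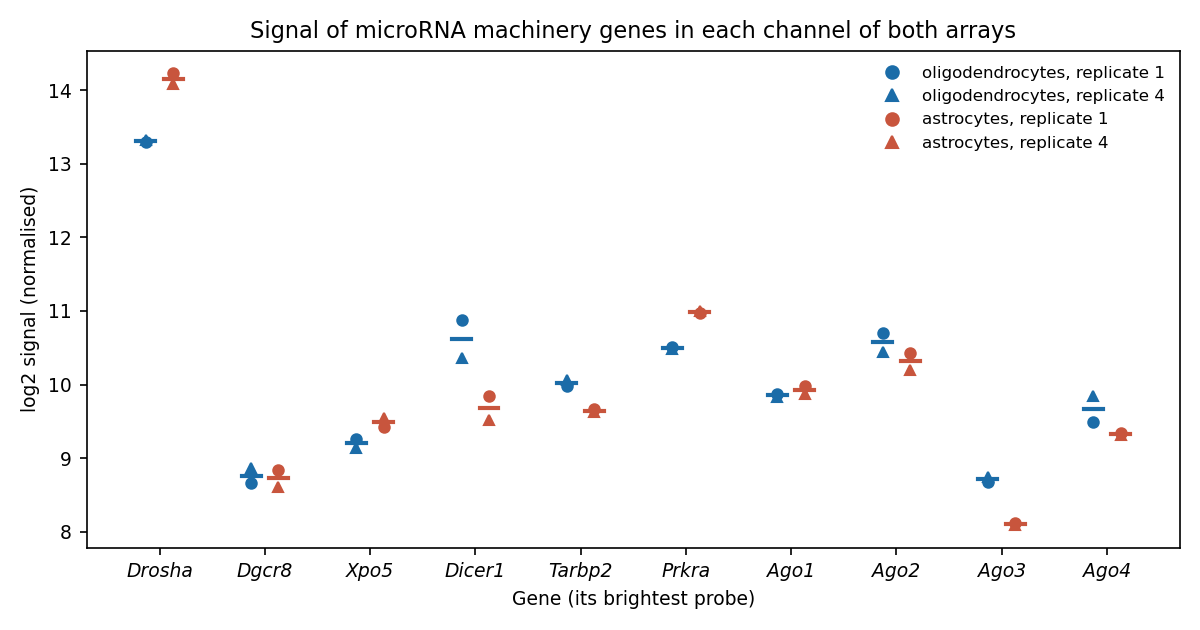
Normalised log2 signal of the brightest probe of each gene (x axis) in oligodendrocytes (blue) and astrocytes (red), on the arrays of replicate 1 (circles) and replicate 4 (triangles), with the mean of each cell type as a bar. Signals of different genes come from different probes and are not comparable; within a gene, Drosha and Prkra lie lower in blue and Dicer1, Tarbp2 and Ago3 higher in blue, the order of the last 2 being turned when ratios are set to the spike-ins.

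Drosha, the nuclear nuclease that starts processing, was higher in astrocytes. Its brightest probe read 13.29 in oligodendrocytes and 14.23 in astrocytes on replicate 1, and 13.32 and 14.08 on replicate 4. The oligodendrocyte signals lay close together and below both astrocyte signals. The ratios were -0.94 and -0.76, with a mean log2 ratio of -0.85 ± 0.12 (SD, n = 2), or 1.80-fold higher in astrocytes (limma adjusted p = 0.000321). The other probes of Drosha had the same direction and were called as well. A_52_P578347, shown above, gave -0.72 ± 0.32 (SD, n = 2), from ratios of -0.49 and -0.94 on replicates 1 and 4. A_51_P311227 (chr15:12963441-12963500), the most 5′ of them and dim, gave -0.46 ± 0.043 (SD, n = 2), and -1.13 in the deposited ratios of Agilent's Feature Extraction. The brightest probe lies at chr15:12995078-12995137. Drosha was no longer called with median centring, at a log2 ratio of -0.91 (limma adjusted p = 0.133), or with treat (limma adjusted p = 0.0517). Over all alternatives its limma adjusted p ran from 2.92e-06 to 0.133 and the sign held.

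Dgcr8, which holds the hairpin for Drosha, showed no call on any probe. The brightest (A_52_P22446, chr16:17803884-17803943) read 8.65 in oligodendrocytes and 8.84 in astrocytes on replicate 1, and 8.86 and 8.61 on replicate 4. The groups overlapped and the order turned between the arrays, with ratios of -0.19 and 0.25. The mean was 0.032 ± 0.31 (SD, n = 2; limma adjusted p = 0.899), with an unadjusted 95% interval of -0.28 to 0.35. A_52_P105381 (chr16:17821116-17821175) read 7.39 and 7.67 in oligodendrocytes, and 7.44 and 6.54 in astrocytes. Here 1 astrocyte channel, that of replicate 4, stood below the other 3, which gave ratios of -0.044 and 1.14 and a mean of 0.55 ± 0.84 (SD, n = 2; limma adjusted p over probes = 0.0804). That probe was called higher in oligodendrocytes with Feature Extraction's ratios (1.19) and with a background offset of 10 (0.79). The third probe, A_52_P150999 (chr16:17818877-17818936), was not well above background in any channel.

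Xpo5, the export carrier, was mixed between its 4 probes. The brightest (A_51_P152191, chr17:44372239-44372298) read 9.26 in oligodendrocytes and 9.42 in astrocytes on replicate 1, and 9.13 and 9.55 on replicate 4. Both oligodendrocyte signals lay below both astrocyte signals, but the gap was small on replicate 1. Ratios of -0.16 and -0.42 on replicates 1 and 4 gave -0.29 ± 0.18 (SD, n = 2), which did not pass the test (limma adjusted p = 0.103; unadjusted 95% interval -0.57 to -0.0021). A_52_P201232 (chr17:44371210-44371269), which lies 1029 bases from it, gave -0.43 ± 0.18 (SD, n = 2) and passed toward astrocytes (limma adjusted p over probes = 0.0168), though not with Feature Extraction's ratios, at -0.43. The dim probes toward the 5′ end, A_52_P209328 (chr17:44337616-44343607) and A_52_P638867 (chr17:44337959-44338018), gave -0.066 ± 0.12 and 0.13 ± 0.28 (SD, n = 2), with opposite signs on the arrays of each. With spike-in scaling the gene passed as higher in astrocytes at -0.996.

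Dicer1, the cytoplasmic nuclease, was higher in oligodendrocytes and had, as reported, the largest absolute log2 ratio of the 10 genes. With median centring Drosha's was larger, and with spike-in scaling most of the other genes' were. Its brighter probe read 10.87 in oligodendrocytes and 9.85 in astrocytes on replicate 1, and 10.36 and 9.52 on replicate 4. Both channels were lower on replicate 4, yet the lower oligodendrocyte signal stayed above the higher astrocyte signal. The ratios were 1.03 and 0.85, with a mean log2 ratio of 0.94 ± 0.13 (SD, n = 2), or 1.92-fold higher in oligodendrocytes (limma adjusted p = 0.000166). The second probe, 29709 bases closer to the 3′ end, read 8.60 and 8.29 in oligodendrocytes, and 7.91 and 8.02 in astrocytes. It gave 0.48 ± 0.29 (SD, n = 2; limma adjusted p over probes = 0.0155), so that both probes agreed in direction and differed in size. The gene stayed positive at 0.23 with spike-in scaling, without a call (limma adjusted p = 0.103), and stood at 0.84 with median centring, also without one (limma adjusted p = 0.189). Its limma adjusted p ran from 3.72e-08 to 0.189 across the alternatives. The second probe stood at -0.23 with spike-in scaling.

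The partners of Dicer1 went in opposite directions. Tarbp2, its main double-stranded RNA-binding partner and an inhibitor of the kinase PKR, has 1 probe (A_51_P111583, chr15:102509553-102509612, plus strand). It read 9.98 in oligodendrocytes and 9.66 in astrocytes on replicate 1, and 10.06 and 9.62 on replicate 4. The groups did not overlap. Ratios of 0.31 and 0.44 gave a mean log2 ratio of 0.38 ± 0.088 (SD, n = 2), or 1.30-fold higher in oligodendrocytes (limma adjusted p = 0.0313), but -0.33 with spike-in scaling. Prkra, also called PACT, a related partner that activates PKR, read 10.50 and 10.49 in oligodendrocytes and 10.97 and 11.00 in astrocytes on A_51_P345836 (chr2:76473858-76473917). The replicates of each cell type differed by far less than the cell types did. The ratios were -0.47 and -0.51, with a mean log2 ratio of -0.49 ± 0.034 (SD, n = 2), or 1.40-fold higher in astrocytes (limma adjusted p = 0.00814). Its second probe, A_52_P588189 (chr2:76478646-76478705), was not well above background in any channel. Both calls were lost with median centring, at 0.28 for Tarbp2 and -0.60 for Prkra, and with treat against 0.5.

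Ratios of genes on the same array can be set against each other, and a shift common to all genes cancels in that difference. Dicer1 exceeded Drosha by 1.97 on replicate 1 and by 1.61 on replicate 4, a mean difference between log2 ratios of 1.79 ± 0.25 (SD, n = 2). On each gene's brightest probe, the balance of Dicer1 over Drosha mRNA was thus 3.45-fold higher in oligodendrocytes than in astrocytes. Tarbp2 exceeded Prkra by 0.78 and 0.95, a mean of 0.87 ± 0.12 (SD, n = 2) and a 1.82-fold shift in balance. The pairs were chosen after their values were seen and carry no test. Taken over the mean of each gene's probes in place of the brightest, the first difference was 1.39, or 2.62-fold; over the values as reported and the 13 other alternatives it lay between 1.75 and 1.87. The second lay between 0.86 and 0.93 over all settings. Spike-in scaling, the filters and the changes of test cannot alter such a difference, and the authors' table repeats Feature Extraction's ratios. The mean of probes could not alter the second difference either, since Tarbp2 and Prkra have 1 tested probe each. Dgcr8 exceeded its partner Drosha by 0.75 and 1.02.

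Among the Argonautes, Ago3 was the 1 gene called. Its brightest probe (A_52_P126513, chr4:125778400-125778459, minus strand) read 8.68 in oligodendrocytes and 8.12 in astrocytes on replicate 1, and 8.74 and 8.09 on replicate 4. The cell types were clearly apart and the replicates close. The ratios were 0.56 and 0.66, with a mean log2 ratio of 0.61 ± 0.069 (SD, n = 2), or 1.52-fold higher in oligodendrocytes (limma adjusted p = 0.00247), and -0.10 with spike-in scaling. Of the other 4 probes of Ago3, A_51_P113068 (chr4:125790071-125790130) gave 0.66 ± 0.11 and A_52_P556266 (chr4:125786148-125786207) gave 0.43 ± 0.14 (SD, n = 2), both called higher in oligodendrocytes and both below 0 with spike-in scaling. The remaining probes lie between these and the brightest one: A_52_P126521 (chr4:125779368-125779427) gave 0.24 ± 0.16 and A_52_P24793 (chr4:125780291-125780350) gave 0.020 ± 0.084 (SD, n = 2), neither called. Ago3 was not called with median centring, at 0.57, or with treat (limma adjusted p = 0.536 and 0.765), and its limma adjusted p ran from 3.45e-05 to 0.765 across the alternatives.

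Ago4, which lies near Ago3 and Ago1 on chromosome 4, leaned the same way without a call. Its brightest probe (A_52_P27117, chr4:125934299-125934358) read 9.48 and 9.84 in oligodendrocytes, and 9.34 and 9.31 in astrocytes. The groups did not overlap, and the oligodendrocyte channel of replicate 4 was the highest. The ratios were 0.14 on replicate 1 and 0.53 on replicate 4, so the arrays differed widely, with a mean log2 ratio of 0.34 ± 0.28 (SD, n = 2; limma adjusted p = 0.0747; unadjusted 95% interval 0.033 to 0.64). The other 4 probes ran from -0.021 to 0.27: A_52_P27122 (chr4:125934565-125934624) at 0.27 ± 0.016, A_52_P8444 (chr4:125937125-125937184) at 0.20 ± 0.011, A_52_P525027 (chr4:125953020-125953079) at 0.13 ± 0.16, and A_52_P17422 (chr4:125960538-125960597) at -0.021 ± 0.16 (SD, n = 2), none of them called. With spike-in scaling the ratio of -0.37 passed the test toward astrocytes.

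Ago2, the target-cutting Argonaute, did not pass the test. Its brightest probe by the rule (A_51_P180001, chr15:73186176-73186235) read 10.70 in oligodendrocytes and 10.43 in astrocytes on replicate 1, and 10.45 and 10.20 on replicate 4. The ratios of 0.27 and 0.25 were nearly equal, while the signals of both cell types were lower on replicate 4. The mean was 0.26 ± 0.016 (SD, n = 2; limma adjusted p = 0.12; unadjusted 95% interval -0.011 to 0.52). The probe A_52_P101221 (chr15:73186604-73186663) gave 0.16 ± 0.33 (SD, n = 2), with opposite signs on the arrays. A further probe, A_51_P166107 (chr15:73178448-73178507), is outside the rule because the files name it 2310051F07Rik, which the RefSeq table lists as an older name of Ago2. It read 12.14 and 12.15 in oligodendrocytes, and 12.01 and 11.89 in astrocytes, a log2 ratio of 0.20 ± 0.092 (SD, n = 2), also not called. With spike-in scaling Ago2 was called higher in astrocytes at -0.45.

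Ago1 was close to even. Its brightest probe (A_52_P76402, chr4:125880047-125880106), which the files tie to a clone said to keep an intron, read 9.88 and 9.83 in oligodendrocytes and 9.99 and 9.87 in astrocytes, and the groups overlapped by little. The ratios were -0.11 and -0.043, with a mean log2 ratio of -0.076 ± 0.047 (SD, n = 2; limma adjusted p = 0.693; unadjusted 95% interval -0.35 to 0.19). A_52_P97489 (chr4:125882988-125883047) gave 0.15 ± 0.12 and A_52_P313035 (chr4:125885881-125885940) gave -0.0030 ± 0.034 (SD, n = 2), neither called, and with spike-in scaling the gene was called higher in astrocytes at -0.79. On the same arrays Ago3 exceeded Ago1 by 0.67 and 0.70, a mean difference of 0.68 ± 0.022 (SD, n = 2), Ago2 by 0.29 and 0.41, and Ago4 by 0.42 and 0.12. As means of a gene's probes, Ago3 exceeded Ago1 by 0.37. These pairs too were chosen after their values were seen.

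**Figure D2:**
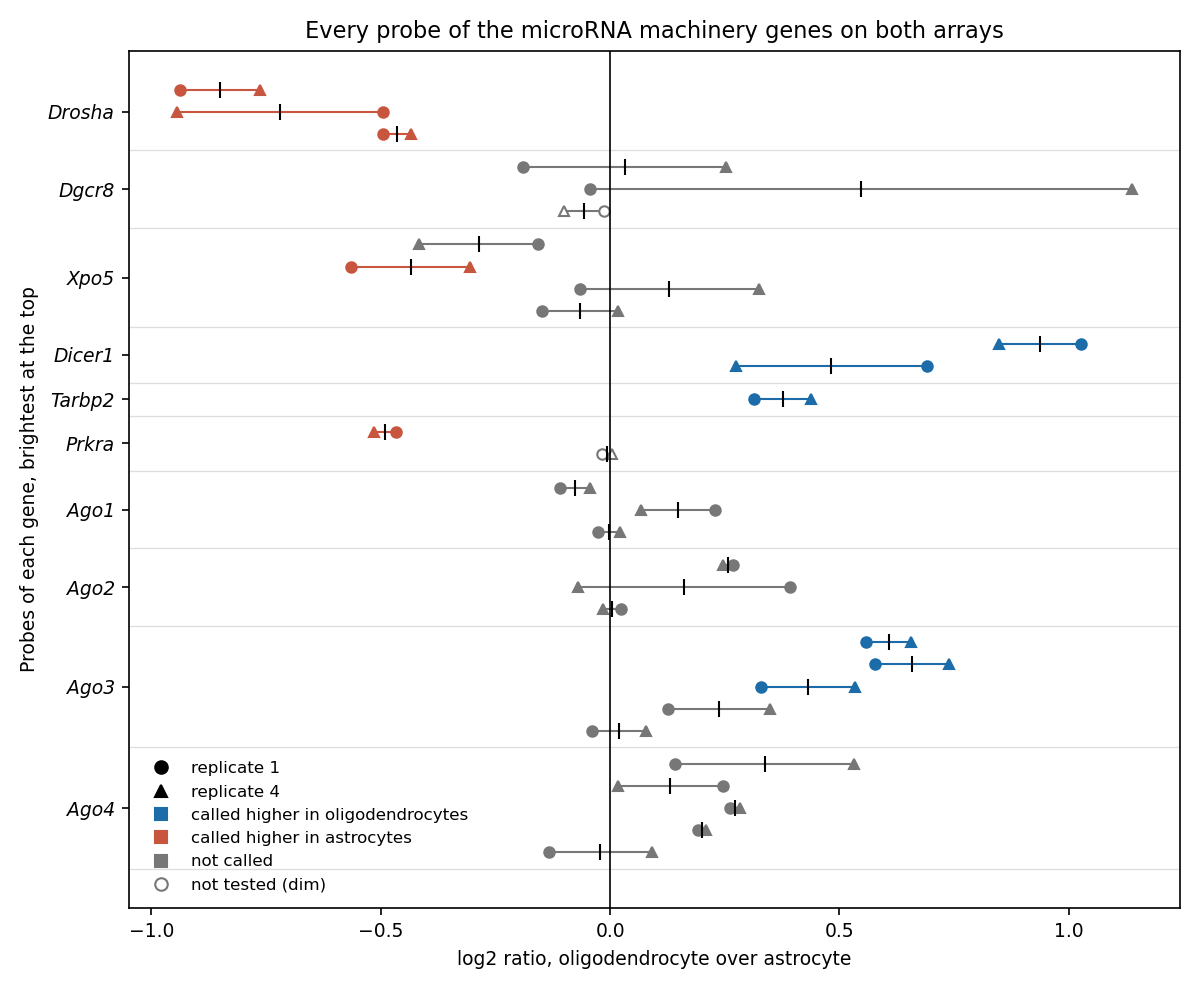
Log2 ratio of oligodendrocyte over astrocyte (x axis) for each of the 31 probes, grouped by gene with the brightest at the top, on replicate 1 (circles) and replicate 4 (triangles), joined by a line with the mean as a black tick. All 3 Drosha probes lie left of 0 on both arrays and both Dicer1 probes right of it. Dgcr8, Xpo5, Prkra, Ago1, Ago2, Ago3 and Ago4 each hold a probe that crosses 0, the one of Prkra being untested. Ratios set to the spike-ins lie 0.71 further left. Among others, this turns the direction of Tarbp2, of all 5 Ago3 probes, of the dimmer Dicer1 probe and of probes of Ago2 and Ago4.

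Counted by probe, 11 of the 29 tested were called (40.2% of all 32565 probes tested): 6 higher in oligodendrocytes (18.5% of all probes) and 5 higher in astrocytes (21.8%). With Feature Extraction's ratios the count was also 11, split into 8 and 3, beside 6858 and 7102 of all probes tested. With spike-in scaling 24 were called, all higher in astrocytes, beside 29290 of all probes tested, of which 27585 were higher in astrocytes. Over the 29 probes, 20 had the same sign on both arrays (69.0%, beside 76.8% of all probes). Of the 29, 12 had a mean signal below the median of all 41174 gene probes, untested ones included. Among those 12 were 3 of the 11 called probes. Ratios of such dim probes moved with the background step: A_51_P113068 of Ago3 read 0.66 with the offset of 50 as reported and 0.92 with an offset of 10. It read 1.25 with Feature Extraction, which differs in both background and normalisation. The share of G and C in the 31 probes ran from 26.7% to 55.0%.

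**Figure D3:**
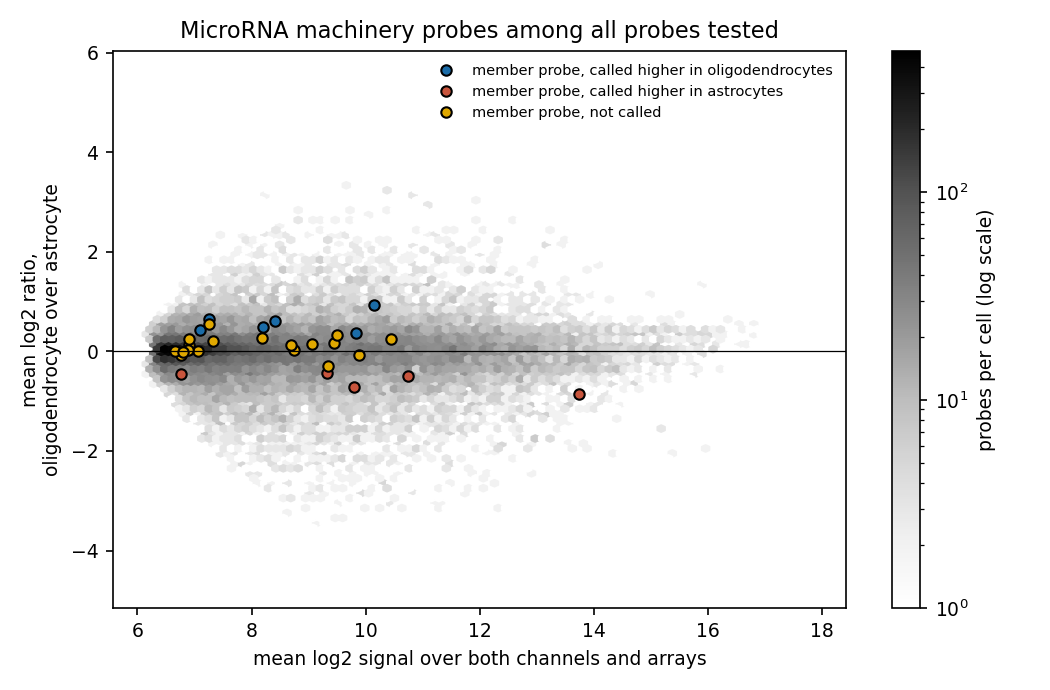
Mean log2 ratio of oligodendrocyte over astrocyte (y axis) against mean log2 signal (x axis) for all 32565 probes tested (grey, darker where more probes fall) and the 29 probes of the microRNA machinery (coloured by call). The coloured points stay within 1 log2 unit of 0 and spread over dim and bright signals; with spike-in scaling all points move 0.71 down.

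Both cell types carried their own markers. All 8 oligodendrocyte markers examined were called higher in oligodendrocytes (median log2 ratio 2.80) and all 8 astrocyte markers higher in astrocytes (-3.08). Markers of other cells differed too. Of 8 microglia markers, 7 were called higher on the oligodendrocyte side (median 1.31), with a summed signal of 144603 to 183389 there and 42568 to 44713 in astrocytes. Of 7 neuron markers tested 5 were higher and 1 lower on the oligodendrocyte side (summed signal 18800 to 22602 against 4774 to 4954), and of 8 fibroblast markers 5 were higher (62740 to 64256 against 13809 to 15231). All 7 ependymal cilia markers were higher on the astrocyte side (12132 to 18647 in oligodendrocytes against 141329 to 163038). Of 8 markers of dividing cells, 1 was called (32046 to 33648 against 27791 to 28343). Every tested marker was well above background in both cell types. The part of these other cells in the ratios of the microRNA genes was not tested, and a smaller share of a cell type and less RNA per cell cannot be told apart.

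Genes that work with the machinery were taken as 6 lists. Of 85 genes, 78 were tested and 20 called (25.6%, beside 41.2% of all genes), 10 in each direction, with a median log2 ratio of 0.027. With Feature Extraction's ratios 18 were called, 12 higher in oligodendrocytes and 6 in astrocytes. With median centring 2 were, and with spike-in scaling 74, of which 73 were higher in astrocytes. Of all genes tested, these settings called 9542, 2928 and 19584. Nuclear helpers of Drosha were mostly uncalled: of 12, 1 was higher in each cell type (median 0.048). Hnrnpa1, an RNA-binding protein that aids the processing of some hairpins, stood at 0.55 ± 0.23 (SD, n = 2), and at -0.16 with spike-in scaling. As means of a gene's probes, none of the 12, Hnrnpa1 included, was called higher in oligodendrocytes. Adar, which edits adenosines in double-stranded RNA, stood at -0.78 ± 0.67 (SD, n = 2), from ratios of -1.25 and -0.30, so replicate 1 carried most of it. Of the 6 genes of the Ran cycle that powers export, 1 was called, the nuclear pore protein Nup153, higher in astrocytes (-0.41 ± 0.078; SD, n = 2), and not with Feature Extraction's ratios. Ran itself stood at 0.045, without a call.

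Chaperones that open Argonaute for loading had called genes on both sides: of 12, 1 was higher in oligodendrocytes and 3 in astrocytes (median -0.077). That is 33.3% called, beside 41.2% of all genes. Hsp90aa1, the inducible cytosolic HSP90, read 15.55 and 15.09 in oligodendrocytes and 16.56 and 16.58 in astrocytes. Its log2 ratio of -1.25 ± 0.34 (SD, n = 2) kept its call with median centring and with treat. Its constitutive paralog Hsp90ab1 stood at -0.075, without a call. Ahsa1, an activator of the HSP90 ATPase, was higher in astrocytes (-0.48 ± 0.23; SD, n = 2). Hspa4, a nucleotide exchange factor of the HSP70 family, was higher in oligodendrocytes at 0.72 ± 0.19 (SD, n = 2), but not called as the mean of its probes, at 0.24. With spike-in scaling it stood at 0.013.

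Silencing effectors, which act on the mRNA that Argonaute finds, were called in both directions, 4 and 4 of 27 (median 0.030). That is 29.6% called, beside 41.2% of all genes. Cnot6l, a deadenylase, stood at 0.47 ± 0.25 and Cnot3, a scaffold of the same CCR4-NOT complex, at 0.44 ± 0.049 (SD, n = 2), both higher in oligodendrocytes and both below 0 with spike-in scaling. Cnot7, another deadenylase of that complex, stood at -0.67 ± 0.022, and Dcp1b, a decapping cofactor, at -0.63 ± 0.23 (SD, n = 2), both higher in astrocytes. As means of their probes Cnot3 (0.15) and Cnot7 (-0.22) were not called. Pabpc1, the poly(A)-binding protein, stood at 0.030, without a call.

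For tailing and turnover of microRNAs, 13 of 16 genes were tested, and 3 passed toward oligodendrocytes and 1 toward astrocytes (median -0.0096). That is 30.8% called, beside 41.2% of all genes. Snd1, a nuclease of the Tudor-SN type, stood at 0.39 ± 0.18 and the exonuclease Eri1 at 0.38 ± 0.23 (SD, n = 2), both below 0 with spike-in scaling, and the poly(A) ribonuclease Parn at -0.45 ± 0.35 (SD, n = 2). The calls of Snd1, Eri1 and Parn lay near the threshold (limma adjusted p = 0.0342, 0.0423 and 0.0288). Those of Eri1 and Parn were lost in several alternatives. The list's count of 4 was 1 with no background subtraction, with Feature Extraction's ratios and with no filter. Lin28a and Lin28b, which block let-7 maturation, had no probe that entered the test. In the Piwi pathway, the germ-line relative of the Argonaute system, 8 of 12 genes were tested and 1 was called (12.5%). Ddx4, the germ-cell RNA helicase Vasa, read 8.42 and 8.43 in oligodendrocytes and 6.56 and 6.22 in astrocytes, well above background in all 4 channels. Its log2 ratio was 2.04 ± 0.25 (SD, n = 2), or 4.11-fold higher in oligodendrocytes (limma adjusted p = 1.34e-06), and the call held with median centring and with treat. The astrocyte signals behind this fold lay near the lowest ones counted as well above background in that cell type (6.12, mean over arrays). The other 7 genes of that list lay between -0.17 and 0.29 without a call. With Feature Extraction's ratios 4 of the 8 were called, 3 higher in oligodendrocytes and 1 in astrocytes, beside 9542 of all 21897 genes.

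**Figure D4:**
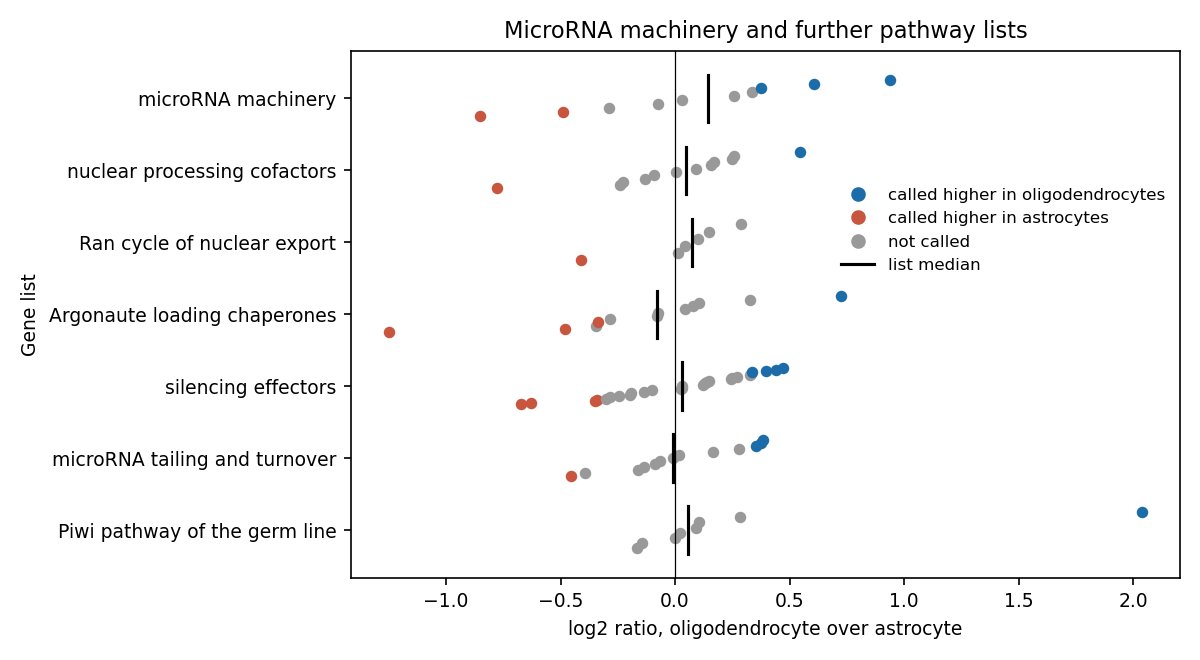
Log2 ratio of oligodendrocyte over astrocyte (x axis) for the 10 microRNA machinery genes and the 78 tested genes of 6 further lists (rows), 1 point per gene, coloured by call, with the list median as a bar. List medians lie near 0 and called genes fall on both sides; Ddx4 at 2.04 and Hsp90aa1 at -1.25 are the outermost points, and with spike-in scaling all points lie 0.71 further left, which turns all points between 0 and 0.71.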

How the data were processed

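Per the labels' protocols, Trizol-extracted RNA was linearly amplified with a low-input kit from Agilent. The deposited files hold the spot intensity of both channels, as written by Agilent Feature Extraction 9.5.3.1 per the submitters' processing notes and the file headers; the authors applied no normalisation to these mean and background values. Per the file headers, Feature Extraction also wrote background-corrected, dye-normalised log10 ratios (Cy5 over Cy3). The deposited value table repeats them (largest difference 0; median of each array 0) with the dye swap unturned. Slide and scan could not serve as batches, since both arrays share 1 slide and 1 scan start.

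Of 45018 spots on an array, 1639 were controls; none of the 43379 gene spots was saturated, and 76.6% to 83.9% were well above background per channel. Precision is limited by there being 2 arrays, which leave 1 residual degree of freedom a gene. With limma 3.58.1 (R 4.3.3), background was corrected by normexp with an offset of 50 and ratios were normalised by loess within arrays, turned to oligodendrocyte over astrocyte (Pearson r between arrays over gene spots -0.92 before and 0.92 after turning) and averaged over spots of a probe. Probes were tested if both arrays read them well above background in the same cell type and no spot had an outlier mark: 32565 of 41174, for 21897 genes. Signals per channel were normalised by loess and Aquantile. Genes and probes were tested with lmFit and eBayes against 0, each with its own Benjamini-Hochberg adjustment. For genes, eBayes weighed the variance shared by all genes with 8.4 degrees of freedom, beside the gene's own 1. A gene's p-value and interval therefore do not follow from the SD printed with it alone. Intervals are 95% and unadjusted. Gene names came from a RefSeq table of GRCm38.p6: accessions named 24913 gene spots, current symbols 6857 and older ones 3127, with 8482 left under the file's name. Probe sequences and mm7 coordinates are those of the array files. The fit was tested on simulated data.

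All member genes and their probes are named, except 1 probe that is counted but not reported singly here, and of each further list up to 2 called genes per direction; Ran, Hsp90ab1, Pabpc1, Lin28a and Lin28b were named after their values were seen. The members and lists were chosen with earlier results of these data known. The alternatives changed the background step (none, or an offset of 10), the normalisation (median centring, scaling between arrays, spike-in scaling, Feature Extraction's ratios, the authors' table), the filter (none, stricter, marked spots kept), the test (trended robust prior, treat against 0.5, separate channels) and the gene summary (mean of probes).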

Additional observations from a re-analysis of the deposited data

How the results depend on the processing

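Of 14 alternatives, 11 left all 10 member genes with the same call; the 3 that did not were median centring, spike-in scaling and treat against 0.5. These 11 are not separate checks. The authors' table repeats Feature Extraction's ratios, and the changes of filter leave every member gene's ratio as it is. Among the 11, 1 uncalled ratio changed sign, that of Ago1 as the mean of its probes (0.023). With median centring limma called 0 member genes, 0 member probes, 2 pathway genes, 2928 genes and 3932 probes in all; the cause was not tested. At an unadjusted p under 0.05, limma passed 2 member genes and 3 member probes there. With treat the counts were 1, 2, 2, 3816 and 5036, and with spike-in scaling 8, 24, 74, 19584 (1300 higher in oligodendrocytes and 18284 in astrocytes) and 29290. Spike-in scaling subtracts 0.71 from every log2 ratio, so every ratio between 0 and 0.71 turned. Among the member genes and the pathway genes named by rule that were called before or after it, the turned ones were Dgcr8 (-0.68), Tarbp2 (-0.33), Ago2 (-0.45), Ago3 (-0.10), Ago4 (-0.37), Hnrnpa1 (-0.16), Cnot6l (-0.24), Cnot3 (-0.27), Snd1 (-0.32) and Eri1 (-0.33). Among probes they included A_52_P22446 of Dgcr8 (-0.68), A_52_P638867 of Xpo5 (-0.58), A_51_P333060 of Dicer1 (-0.23), A_51_P111583 of Tarbp2 (-0.33) and A_52_P97489 of Ago1 (-0.56). Others were A_51_P180001 (-0.45) and A_52_P101221 (-0.55) of Ago2, and A_52_P126513 (-0.10), A_52_P126521 (-0.47), A_52_P24793 (-0.69), A_52_P556266 (-0.28) and A_51_P113068 (-0.052) of Ago3. Those of Ago4 were A_52_P27117 (-0.37), A_52_P27122 (-0.44), A_52_P8444 (-0.51) and A_52_P525027 (-0.58); A_52_P105381 of Dgcr8 (-0.16) turned without a call on either side.

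Each ratio is taken within an array, which pairs the replicates by number; with separate channels and no replicate block limma called 5 member genes, 11 member probes and 9471 genes. Leaving out 1 array leaves a single ratio with no residual degrees of freedom, so it gives no count of calls; the member genes' ratios on each array are given above, and only Dgcr8 differed in sign between them. Signal limits the dim probes, whose ratios moved with the background offset.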
